A study of Mus musculus with 9 samples.

Results

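The genes described here are 9 markers of excitatory neurons of the cortex and hippocampus, namely Slc17a7, Neurod2, Neurod6, Tbr1, Lamp5, Cux2, Emx1, Nrgn and Rasgrf2. They were chosen by name, and 1 Ensembl identifier was found for each among the 47729 identifiers in the count tables. The data were RNA sequencing of tissue dissected from the midbrain dopamine area of C57/Bl6 mice at postnatal day 180, with 9 libraries in all. The question put to the data was how much RNA of these forebrain genes the dissected midbrain held, how it varied from library to library, and whether it differed between the Dot1l genotypes.

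Dot1l encodes the methyltransferase of histone 3 at lysine 79, and the study compared 3 libraries each of Dot1l(+/+), Dot1l(fl/+) and Dot1l(fl/fl) mice. Every mouse had Pitx3-Cre/+, so that Cre was made from the Pitx3 locus in dopamine neurons, and the reporter Rosa-lox-stop-lox-Yfp. The control mice therefore also had the Cre allele and the reporter, and differed from the others only in having no floxed Dot1l allele by their labels. Each library was a pool of 3 animals, and the dissected piece held many cells in which Cre was never expressed. The design text of the series describes YFP-sorted cells of embryos, whereas the labels of all 9 libraries give dissected tissue of adults, and the labels of the libraries were followed. Because the tissue was not sorted, a lower level of a gene can mean fewer cells that express it or less RNA per cell, and bulk counts cannot tell these apart.

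In the adult brain the pallium, which forms the cortex and hippocampus, is populated by glutamatergic neurons that arise from a zone defined by homeobox genes such as Emx1. As they differentiate they pass through a cascade of transcription factors that includes Tbr1 and members of the Neurod family, and once mature they load glutamate into synaptic vesicles with the transporter encoded by Slc17a7. Glutamatergic neurons of the thalamus and midbrain mostly use the related transporter Slc17a6. The hippocampus and the overlying cortex lie directly against the dorsal and lateral midbrain in the intact brain. According to the study's description of the dissection, cortex and dorsal midbrain were cut away from the slices so that the ventral midbrain remained. Several of the genes are also made by other neurons. Slc17a7 is used by the pontine nuclei and by the abundant granule cells of the cerebellum, Neurod6 by a subset of dopamine neurons of the ventral tegmental area, and Lamp5 by a class of interneurons within the cortex.

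The libraries held between 16422135 counts in Dot1l(fl/fl) replicate 3 and 28403218 in Dot1l(fl/+) replicate 2. Levels are given as CPM, the counts scaled to library size with TMM factors, and as TPM, which also divides by exon length, where genes are compared with each other. Counts of replicate libraries differed beyond sampling noise, with a chi-square per degree of freedom of 4.47 to 16.5, and the highest values were those of the pairs that contain Dot1l(fl/+) replicate 2. Dopamine neuron markers were present in all libraries, with the sum over 11 such genes between 475 and 694 CPM. Dot1l itself, counted over the whole gene and not over the floxed exon, was 83.5 CPM in Dot1l(+/+), 73.5 CPM in Dot1l(fl/+) and 79.6 CPM in Dot1l(fl/fl) on average. Its libraries overlapped between all genotypes, so a count of the whole gene did not separate the genotypes in this mixed tissue. The lowest library was Dot1l(fl/+) replicate 2, with 60.6 CPM.

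All 9 genes were detected in all 9 libraries, and all 9 passed the filter on low counts. Nrgn, which encodes neurogranin, a postsynaptic protein that binds calmodulin, was the most abundant per length, with 604 ± 75.2 TPM (SD, n = 9 libraries), a level above that of 99.3% of the 17671 genes tested. Slc17a7, the vesicular glutamate transporter VGLUT1, followed with 310 ± 35.2 TPM, and Neurod6, a basic helix-loop-helix factor, with 104 ± 22 TPM. Rasgrf2, a guanine nucleotide exchange factor for Ras that is known from upper cortical layers, reached 74.1 ± 5.61 TPM, and Neurod2, the second basic helix-loop-helix factor, 46.7 ± 7.51 TPM. The lower end was formed by Lamp5, a membrane protein of the LAMP family, with 29.4 ± 2.87 TPM, Cux2, a homeodomain factor of upper cortical layers, with 22.4 ± 2.46 TPM, Tbr1, a T-box factor of deep layers, with 9.49 ± 2.15 TPM, and Emx1 with 5.29 ± 1.06 TPM. In this order the ranges of neighbouring genes over the 9 libraries did not overlap, except for Neurod6 and Rasgrf2, where Neurod6 was still the higher gene in 9 of 9 libraries.

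Some of the 9 genes were more and some less abundant than their closest relatives. Slc17a7 exceeded Slc17a6, the transporter of subcortical glutamatergic neurons, in 8 of 9 libraries, with a mean ratio of TPM values of 1.26 ± 0.217 (SD, n = 9) and a range from 0.871 to 1.52. Rasgrf1 was 3.24 times as abundant per length as Rasgrf2, and Emx2 1.9 times as abundant as Emx1. Cux1, which is expressed more widely than Cux2, was the lower gene of its pair per length, at 0.699 of the Cux2 level. In CPM the order was reversed, with Cux1 at 70.48 to 81.32 CPM and Cux2 at 46.04 to 62.05 CPM, so it depends on the exon lengths used.

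In the genome build GRCm38 with the GENCODE M21 annotation, Slc17a7 (ENSMUSG00000070570) spans chr7:45163949-45176142 on the plus strand and Neurod6 chr6:55677822-55681263 on the minus strand. Tbr1 lies at chr2:61802930-61814114 and Lamp5 at chr2:136052239-136069917, both on the plus strand, and Emx1 at chr6:85187438-85204462 on the plus strand. Neurod2 (chr11:98325415-98329648), Cux2 (chr5:121856366-122050102), Nrgn (chr9:37544492-37552904) and Rasgrf2 (chr13:91880400-92131656) lie on the minus strand. The annotated exons of each gene add up to between 1453 bases in Nrgn and 10082 bases in Cux2. No other annotated gene shares exon bases with any of them.

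Since basic helix-loop-helix factors such as Neurod2 and Neurod6 bind E-boxes, the 250 bases before the RefSeq start of each gene (GRCm38.p6) were searched for CANNTG, which reads the same on both strands. All 9 genes matched the promoter table, with 11 windows, and 11 of 11 windows held at least 1 E-box, beside 66.2% of the 32851 windows in the table. CAGATG, the form often described for Neurod factors and itself contained in CANNTG, was found on either strand in 3 of the 11 windows, those of Neurod2, Nrgn and the second start of Cux2, beside 14.4% of all windows. The Neurod2 window held 3 E-boxes, and 12.2% of all windows held 3 or more. These matches describe letters and do not show binding. Of the windows that lie outside annotated exons, 3 are shown with their E-boxes in capitals, those of Slc17a7 and Neurod6, the pair that varied most alike over the libraries, and that of Rasgrf2, which varied in the other direction. They are chr7:45163671-45163920 on the plus strand, chr6:55681264-55681513 on the minus strand and chr13:92131829-92132078 on the minus strand, each written 5′ to 3′ and ending at the base before the start.
Slc17a7: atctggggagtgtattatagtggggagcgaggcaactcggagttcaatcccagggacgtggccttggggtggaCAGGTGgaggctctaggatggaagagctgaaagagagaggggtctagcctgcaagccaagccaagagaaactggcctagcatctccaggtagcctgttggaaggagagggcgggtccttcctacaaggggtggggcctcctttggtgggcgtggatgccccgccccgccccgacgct
Neurod6: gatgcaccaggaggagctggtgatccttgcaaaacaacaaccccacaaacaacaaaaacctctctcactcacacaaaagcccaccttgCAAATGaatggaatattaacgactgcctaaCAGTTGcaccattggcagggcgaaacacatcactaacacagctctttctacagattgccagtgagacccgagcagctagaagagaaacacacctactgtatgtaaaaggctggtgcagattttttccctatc
Rasgrf2: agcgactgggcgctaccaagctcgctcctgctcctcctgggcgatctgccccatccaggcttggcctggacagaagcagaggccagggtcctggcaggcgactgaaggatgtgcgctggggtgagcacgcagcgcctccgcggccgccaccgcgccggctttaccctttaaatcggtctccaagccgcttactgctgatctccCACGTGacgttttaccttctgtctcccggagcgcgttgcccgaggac
The Slc17a7 window holds its E-box 177 bases before the start, the Neurod6 window 162 and 132 bases before it, and the Rasgrf2 window 47 bases before it.

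Among the transcription factors, Neurod6 averaged 49.0 CPM in Dot1l(+/+), 51.6 CPM in Dot1l(fl/+) and 65.4 CPM in Dot1l(fl/fl). By library it was 46.1, 41.7 and 59.1 CPM in Dot1l(+/+), 45, 63.5 and 46.4 CPM in Dot1l(fl/+), and 78.4, 68.8 and 49.0 CPM in Dot1l(fl/fl). Replicates 1 and 2 of Dot1l(fl/fl) were the highest of the 9 libraries, yet replicate 3 lay below the highest library of each other genotype, so all 3 groups overlapped. The log2 fold change of Dot1l(fl/fl) against Dot1l(+/+) was 0.42 ± 0.17 (SE), with an edgeR unadjusted p of 0.0272 and an adjusted p of 0.999 (1.84e-05 with no filter on low counts). When each library was left out in turn it moved between 0.27 and 0.59, lowest without Dot1l(fl/fl) replicate 1 and highest without Dot1l(fl/fl) replicate 3. Against Dot1l(fl/+) it was 0.35 ± 0.17, with an edgeR adjusted p of 0.778 (0.00181 with no filter).

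Neurod2 was 29.7, 32.2 and 44.8 CPM in Dot1l(+/+), 30.6, 34.2 and 35.4 CPM in Dot1l(fl/+), and 39.9, 46.9 and 32.9 CPM in Dot1l(fl/fl). Here a control library, Dot1l(+/+) replicate 3, was the second highest of all, and the groups overlapped. Its log2 fold changes were -0.09 ± 0.14 (SE) for Dot1l(fl/+) and 0.17 ± 0.14 for Dot1l(fl/fl), both against Dot1l(+/+), and neither passed the test.

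Tbr1 was 9.84, 13.1 and 13.9 CPM in Dot1l(+/+), 9.28, 19.3 and 11.0 CPM in Dot1l(fl/+), and 13.8, 15.5 and 10.5 CPM in Dot1l(fl/fl). Both the lowest and the highest library therefore belonged to Dot1l(fl/+), a 2.08-fold span and the widest of the 9 genes. Its log2 fold change of Dot1l(fl/+) against Dot1l(+/+) was 0.10 ± 0.23 (SE) with all libraries and turned to -0.28 without Dot1l(fl/+) replicate 2 and to -0.03 without Dot1l(+/+) replicate 1, so its direction rested on single libraries. Emx1, the least abundant gene with 31 to 99 counts a library, was 3.17, 2.66 and 3.08 CPM in Dot1l(+/+), 2.43, 3.50 and 3.70 CPM in Dot1l(fl/+), and 2.92, 2.37 and 1.88 CPM in Dot1l(fl/fl). It had the lowest mean in Dot1l(fl/fl), with a log2 fold change of -0.41 ± 0.20 (SE) against Dot1l(fl/+) and an edgeR adjusted p of 0.778, and the groups overlapped. Cux2 differed less, at 60.2, 57.7 and 52.0 CPM in Dot1l(+/+), 62.0, 46.0 and 56.8 CPM in Dot1l(fl/+), and 53.9, 52.4 and 60.6 CPM in Dot1l(fl/fl). The library that was highest for Tbr1, Dot1l(fl/+) replicate 2, was the lowest for Cux2, and the library that was lowest for Tbr1, Dot1l(fl/+) replicate 1, was the highest for Cux2.

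Of the genes that work at the synapse or membrane, Slc17a7 was 393, 331 and 425 CPM in Dot1l(+/+), 381, 471 and 392 CPM in Dot1l(fl/+), and 497, 464 and 371 CPM in Dot1l(fl/fl). Its high and low libraries within each genotype were those of Neurod6, and all 3 groups overlapped. The log2 fold change was 0.11 ± 0.11 (SE) for Dot1l(fl/+) and 0.21 ± 0.11 for Dot1l(fl/fl) against Dot1l(+/+), the latter with an edgeR adjusted p of 0.999. Nrgn was 179.4, 178.9 and 223.2 CPM in Dot1l(+/+), 186.5, 258.3 and 229.4 CPM in Dot1l(fl/+), and 224.2, 260.4 and 214.2 CPM in Dot1l(fl/fl). The 2 lowest libraries were controls, but Dot1l(+/+) replicate 3 lay inside both other groups. For Dot1l(fl/fl) against Dot1l(+/+) its log2 fold change was 0.26 ± 0.11 (SE), with an edgeR unadjusted p of 0.0362 and an adjusted p of 0.999 (0.007 with no filter on low counts).

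Lamp5 and Rasgrf2 were the steadiest in Dot1l(fl/fl). Lamp5 was 19.1, 21.4 and 21.3 CPM in Dot1l(+/+), 18.9, 27.4 and 21.5 CPM in Dot1l(fl/+), and 20.8, 21 and 20.3 CPM in Dot1l(fl/fl), with a single high library, Dot1l(fl/+) replicate 2. Rasgrf2 ranged from 163.4 to 178.2 CPM in Dot1l(+/+), from 158.9 to 191.7 CPM in Dot1l(fl/+) and from 162.9 to 164.7 CPM in Dot1l(fl/fl). The plot of levels by library shows how the replicates of a genotype spread around their mean for each gene.

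**Figure D1:**
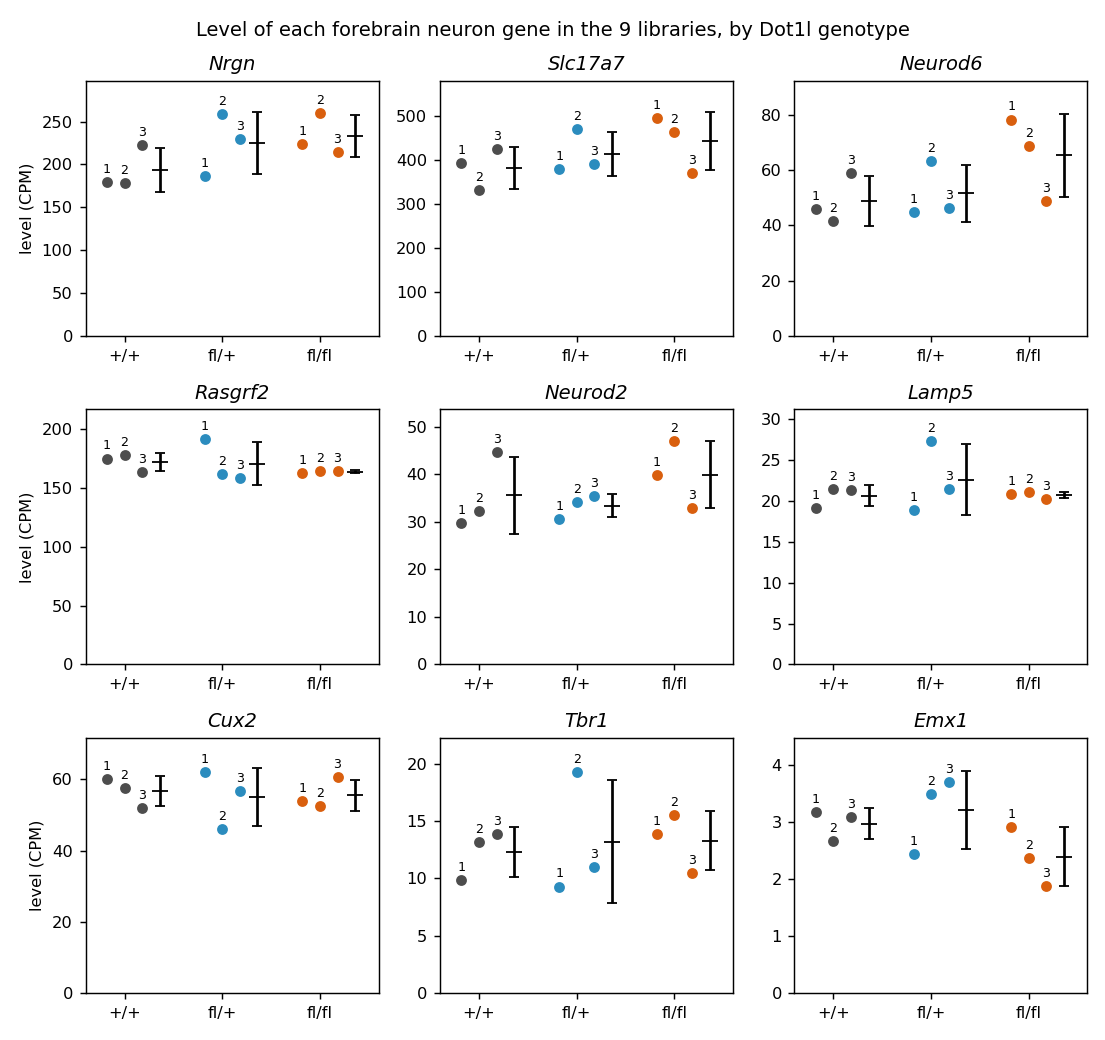
Level of each gene in CPM (vertical axis, from 0) for the 3 Dot1l genotypes (horizontal axis), with genes ordered by TPM. Points are single libraries with their replicate number, and the black mark with bars is the mean ± SD of 3 libraries. The groups overlap for all 9 genes, and Dot1l(fl/+) replicate 2 stands above the other Dot1l(fl/+) libraries for Tbr1 and Lamp5 and below them for Cux2.

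Taking the list as a whole, none of the 9 genes was called in any of the 3 comparisons with the filter on low counts, and Neurod6 and Nrgn were called only by edgeR without it. For Dot1l(fl/+) against Dot1l(+/+), the edgeR quasi-likelihood test called 0 of 9 genes at an adjusted p under 0.05, where it called 0.0% of the 17671 genes tested, 0 of 9 had an unadjusted p under 0.05, beside 8.39% of all genes, and DESeq2 called 0 of 9, beside 0.0499% of the genes to which it gave an adjusted p. The libraries of the 2 genotypes did not overlap for 0 of 9 genes, beside 13.3% of all genes. The median log2 fold change of the 9 genes was 0.10, with 6 higher and 3 lower, and that of all genes was -0.00342.

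For Dot1l(fl/fl) against Dot1l(+/+), edgeR called 0 of 9 genes at an adjusted p under 0.05 (0.0% of all genes), DESeq2 called 0 of 9 (0.0106% of its genes), and 2 of 9, Neurod6 and Nrgn, had an unadjusted p under 0.05, beside 3.93% of all genes. The libraries did not overlap for 0 of 9 genes, beside 10.3% of all genes. The median log2 fold change was 0.12, with 6 genes higher and 3 lower, and that of all genes was 0.000901. The share of the list with a small unadjusted p was thus above that of all genes, but it rests on a pair of genes and was not tested.

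For Dot1l(fl/fl) against Dot1l(fl/+), edgeR called 0 of 9 at an adjusted p under 0.05 (0.0% of all genes), DESeq2 called 0 of 9 (0.0783% of its genes), and 0 of 9 had an unadjusted p under 0.05, beside 6.48% of all genes. The libraries did not overlap for 0 of 9 genes, beside 11.1% of all genes, and the median log2 fold change was 0.02. These comparisons share libraries with each other, so their values are given side by side and not as repeats. With the replicate number as a block edgeR called 0 of 9 genes in each comparison, beside 0.0% of all genes for Dot1l(fl/+) against Dot1l(+/+) and 0.017% for each of the others. The outcome changed only when edgeR was run with no filter on low counts. A stricter filter called 0 of 9 genes, and so did DESeq2, which was given the same unfiltered genes. With no filter, edgeR called Neurod6 (adjusted p = 1.84e-05) and Nrgn (adjusted p = 0.007) for Dot1l(fl/fl) against Dot1l(+/+), Neurod6 against Dot1l(fl/+) (adjusted p = 0.00181), and Nrgn for Dot1l(fl/+) against Dot1l(+/+) (adjusted p = 0.049), with log2 fold changes that differed from those with the filter by less than their SE. That fit tested 28316 genes and called 118 of them (0.417%), 164 (0.579%) and 251 (0.886%) in these 3 comparisons, where the filtered fit called none. Its lowest edgeR adjusted p over all genes was 1.44e-117, 9.39e-232 and 6.61e-106 in the same order. Values this small from 3 libraries a genotype call for caution with that fit, and their cause was not tested.

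**Figure D2:**
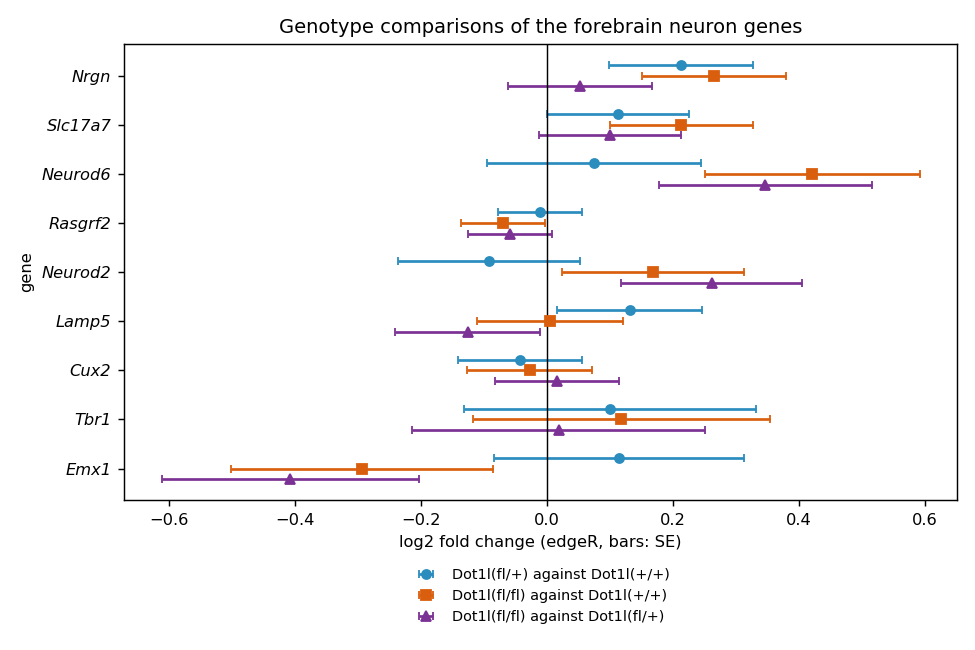
Log2 fold change of each gene from edgeR (horizontal axis) for the 3 genotype comparisons, with bars of 1 SE. The values of Cux2 and Tbr1 lie within 1 SE of 0 in all 3 comparisons, and those of Neurod6 and Nrgn in Dot1l(fl/fl) against Dot1l(+/+) lie farthest above 0 relative to their SE.

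The spread between replicates was wider for most of the 9 genes than for other genes of like abundance. The biological coefficient of variation fitted by edgeR was 20% for Tbr1, 14.7% for Neurod6, 12.6% for Neurod2, 10.3% for Slc17a7 and 10.2% for Nrgn, against 8.81% for all genes together. Among genes of similar abundance (within 0.25 log2 CPM) these values lay at the percentiles 98.7, 99.1, 98.1, 96.5 and 98.0. Emx1 was ordinary for its low abundance, at the percentile 59.6, and Rasgrf2 and Lamp5 lay at 81.1 and 87.9, with Cux2 at 93.8.

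The libraries therefore differed in how much they held of these genes in ways that the genotype labels do not describe, and the 9 genes did so together in 2 opposite sets. With genotype means removed, log2 CPM of the 36 pairs of genes correlated over the 9 libraries with a median Pearson r of 0.47, which fell to 0.289 without Dot1l(fl/+) replicate 1 and was 0.234 with genotype means kept. Among Slc17a7, Neurod6, Neurod2, Nrgn, Tbr1, Lamp5 and Emx1 all 21 pairs were positive, from 0.353 to 0.97 with a median of 0.675. Cux2 and Rasgrf2 ran against these 7 genes in all 14 pairs, from -0.968 to -0.459 with a median of -0.692, and with each other at 0.65. Part of the pattern rested on few libraries. Without the 2 libraries farthest from the median of the first gene of a pair, 20 of the 21 pairs were still positive, with a median of 0.555, but Lamp5 and Emx1 fell to -0.194, Emx1 and Nrgn to 0.0701 and Tbr1 and Emx1 to 0.179. Cux2 stayed below 0 with all 7 genes, from -0.915 to -0.383, whereas Rasgrf2 did so with 6 of 7, at -0.027 with Tbr1 and 0.0552 with Lamp5, and had an r of 0.293 with Cux2. The opposite course of Rasgrf2 to Tbr1 and Lamp5 therefore did not hold without those libraries. This division into sets was noticed after the values were seen and has no test of its own.

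The closest pair was Slc17a7 and Neurod6, with r = 0.97 and Spearman's rho = 1.0 (exact two-sided permutation test of libraries within genotypes, p = 0.00463 for both, adjusted p = 0.0833 over 36 pairs, n = 9). Leaving out the 2 libraries farthest from the median gave r = 0.965. The most opposed pair was Tbr1 and Cux2, with r = -0.968 and rho = -0.967 (exact permutation p = 0.00463, adjusted p = 0.0833), and r = -0.915 without the 2 farthest libraries. Tbr1 and Lamp5 had r = 0.925 and rho = 0.883 (exact permutation p = 0.00926 for both, adjusted p = 0.111), and r = 0.865 without the 2 farthest libraries. The possible orders of libraries within genotypes allow no p below 0.00463, and 0 of 36 pairs had an adjusted p under 0.05. For 9 genes measured in the same libraries these values share depth and scaling, and removing the trends of gene length and GC content from each library left the median r of all pairs at 0.447.

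**Figure D3:**
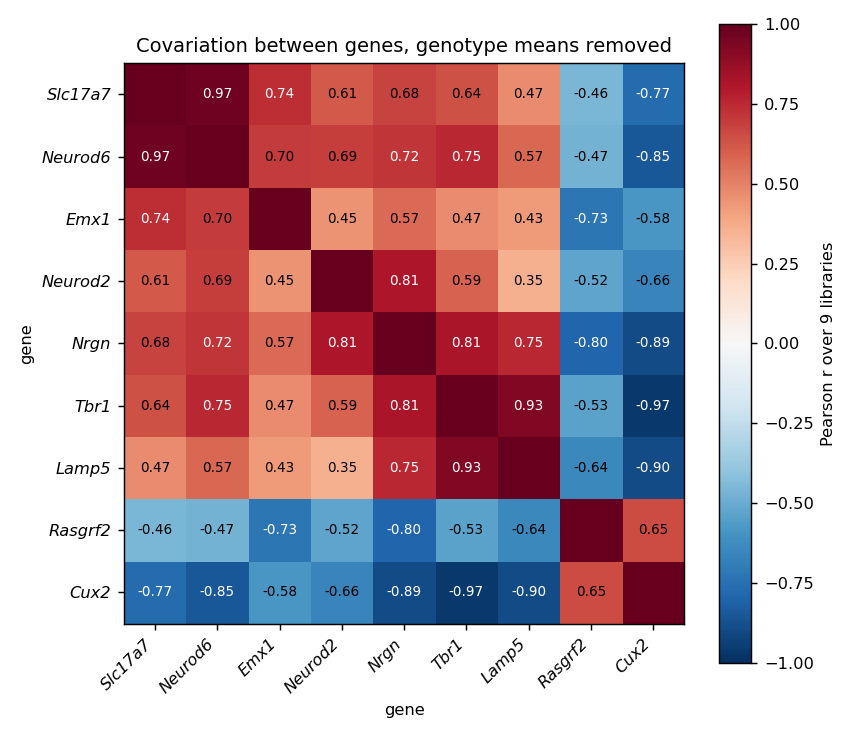
Pearson r between each pair of genes over the 9 libraries after the genotype means of log2 CPM were removed (colour and printed value, red positive, blue negative). The 7 genes at the upper left form a positive block, and the rows of Rasgrf2 and Cux2 are negative against all of them and positive with each other.

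The libraries behind this pattern can be read off directly. Dot1l(fl/+) replicate 2 lay above its genotype mean for 7 of 9 genes and Dot1l(fl/fl) replicate 2 for 8 of 9, whereas Dot1l(fl/+) replicate 1 and Dot1l(fl/fl) replicate 3 each did so for 2 of 9. In the control group replicate 3 was above its genotype mean for 7 of 9 genes. The sum over the 9 genes was 857 to 1006 CPM in Dot1l(+/+), 927.5 to 1085 CPM in Dot1l(fl/+) and 925 to 1096 CPM in Dot1l(fl/fl) with medians of 916, 955 and 1094 CPM, and the libraries of the 3 genotypes overlapped. Not all genes followed the same library, since Dot1l(fl/+) replicate 2 carried the highest Tbr1 and Lamp5 while Dot1l(fl/fl) replicate 1 carried the highest Slc17a7 and Neurod6.

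**Figure D4:**
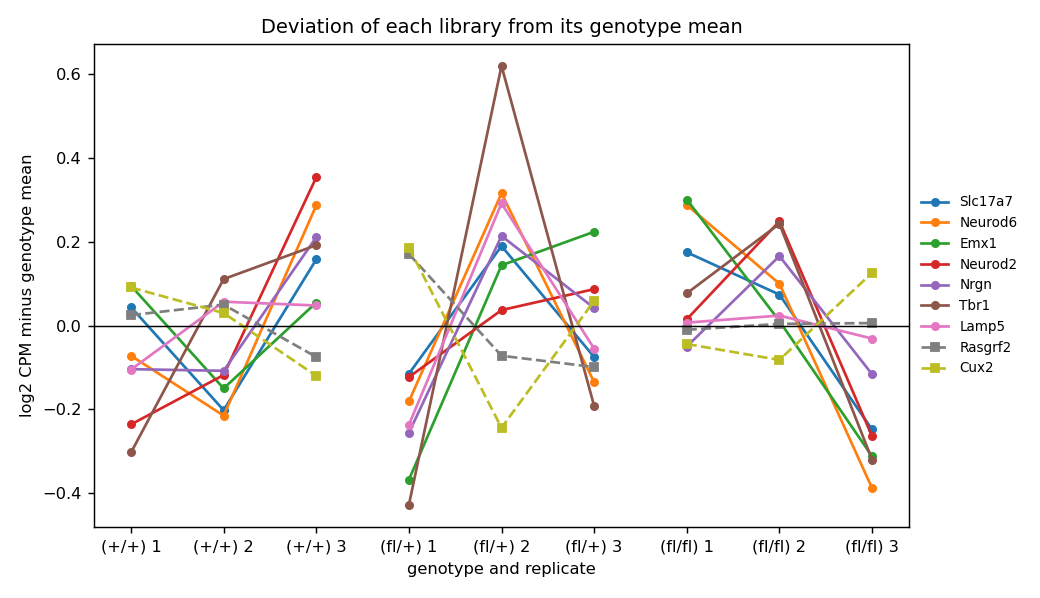
Deviation of each library from the mean log2 CPM of its genotype (vertical axis) for the 9 libraries (horizontal axis, lines join the libraries of a genotype for reading only). Solid lines with circles are the 7 genes that varied together and dashed lines with squares are Rasgrf2 and Cux2, and Tbr1 in Dot1l(fl/+) replicate 2 shows the largest deviation.

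To see what else varied in the same way, every gene with a mean of at least 1 CPM was compared with the mean standardized profile of the 9 genes. Of the 15430 genes compared, 17.7% had an r above 0.5 and 16.9% an r under -0.5. This is how common such values were in these 9 libraries with genotype means removed. Of the 12 other genes of telencephalic excitatory neurons, 12 had an r above 0.5, with a median of 0.778. They included Zbtb18 (0.896), a zinc finger repressor of cortical neuron differentiation, Ddn (0.837), the postsynaptic protein dendrin, Camk2a (0.786), the calcium and calmodulin dependent kinase of excitatory synapses, and Hpca (0.77), the calcium sensor hippocalcin. Of 9 telencephalic interneuron genes 2 had an r above 0.5, with a median of 0.102, and the lists of regional genes were mixed. Of 9 cortical layer genes 4 had an r above 0.5, among them Bcl11b (0.74) and Tle4 (0.615), while Rorb, a gene of layer IV neurons that is also made in the thalamus, had -0.529. Of 10 hippocampal genes 4 had an r above 0.5, with Dkk3 at 0.799, and Prox1, the factor of dentate granule cells, had -0.0208.

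Among genes of other tissues, none of 6 thalamic genes had an r above 0.5 and 4 had an r under -0.5, with the most abundant of them, Rora, at -0.51, Tcf7l2 at -0.564, Prkcd at -0.384 and Calb2 at -0.6. The most opposed genes of the lists were striatal, Tac1 at -0.882 and Rgs9 at -0.874, while the other 4 of the 6 striatal genes lay between -0.227 and 0.215. Among 8 relatives of the 9 genes, 1 had an r above 0.5 and 3 an r under -0.5. Slc17a6 stood at -0.533, against the direction of Slc17a7, and Slc17a8, the third vesicular glutamate transporter, at 0.74. Cux2 had an r above 0.5 for 6 of 6 thalamic genes and for 4 of 5 hypothalamic genes, beside 19.8% of all genes. Its r was under -0.5 for 12 of 12 other telencephalic excitatory neuron genes, beside 19.7% of all genes. Since the telencephalic genes followed the profile of the 9 genes and Cux2 ran against it, these counts restate the opposite course of Cux2 and are not separate evidence. Rasgrf2 had an r above 0.5 for 1 of 6 thalamic genes, beside 13.0% of all genes, and under -0.5 for 3 of 12 telencephalic ones, beside 13.1%, so these few genes do not set it apart. The sum of the thalamic genes was 560 to 635 CPM in Dot1l(+/+), 511 to 715 CPM in Dot1l(fl/+) and 590 to 637 CPM in Dot1l(fl/fl), with the lowest value in Dot1l(fl/+) replicate 2. None of these 6 genes was at 0. Whether the share of bordering tissue in each dissection accounts for the covariation was not tested.

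**Figure D5:**
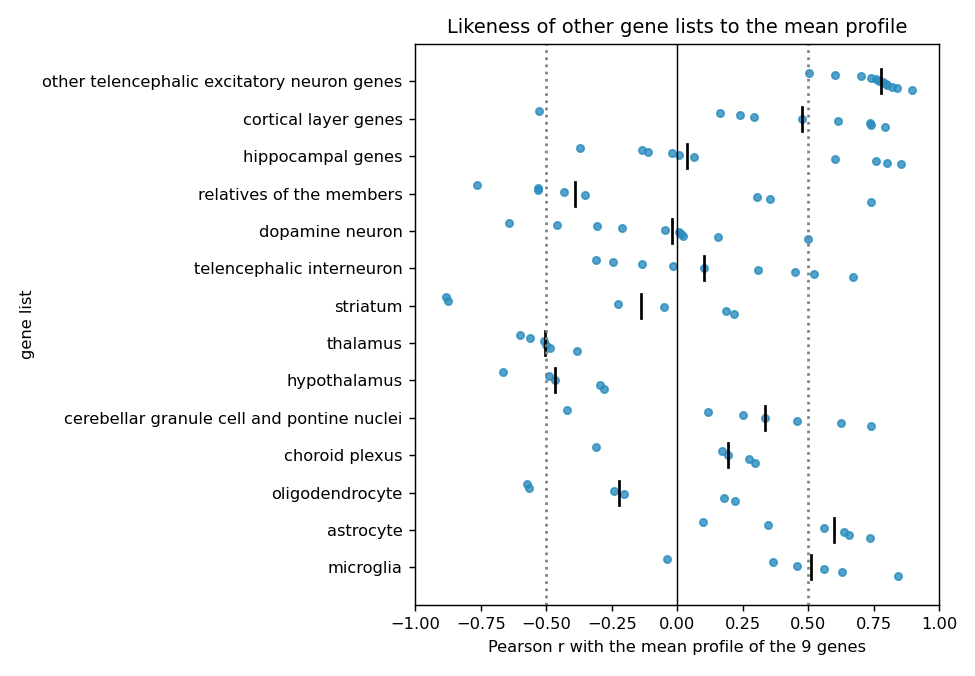
Pearson r of each listed gene with the mean standardized profile of the 9 genes over 9 libraries (horizontal axis), by gene list (vertical axis). Points are genes, black bars are list medians, and dotted lines mark 0.5 and -0.5. All 12 points of the other telencephalic excitatory neuron genes lie above 0.5, and the thalamic genes lie below 0.

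Glial genes moved with the profile in part. Of 6 astrocyte genes 4 had an r above 0.5 and of 6 microglia genes 3, and 0 of 6 oligodendrocyte genes had. The astrocyte sum was 1533 to 1625 CPM in Dot1l(+/+), 1476 to 1764 CPM in Dot1l(fl/+) and 1552 to 1728 CPM in Dot1l(fl/fl), with the highest value in Dot1l(fl/+) replicate 2. Among the genes of cerebellar granule cells and pontine nuclei, where Slc17a7 is also made, 2 of 7 had an r above 0.5. Of the 9 genes in that list, Gabra6 and Cbln3 had a mean under 1 CPM and the other 7 were above it, among them Zic1, which is made in several brain regions, at 75.6 to 83.0 CPM as genotype means. Fat2, also made by granule cells, varied widely between libraries, from 0.191 CPM in Dot1l(fl/+) replicate 3 to 6.01 CPM in Dot1l(+/+) replicate 3 and 5.97 CPM in Dot1l(fl/+) replicate 2. The sum of the hypothalamic genes was high in only 2 libraries, Dot1l(fl/+) replicates 1 and 3, with 131.6 and 64.4 CPM where the other 7 libraries held at most 13.4 CPM. Most of it was Pmch, with up to 99.42 CPM, and Hcrt reached 16.18 CPM. Most genes of that list had their highest genotype mean in Dot1l(fl/+), but Sim1 had its lowest there, at 2.726 CPM. Avp was highest in a Dot1l(+/+) library, at 2.104 CPM. Of the 5 hypothalamic genes compared with the profile, 0 had an r above 0.5 and 1 an r under -0.5, with a median of -0.467. The part of these tissues in the values of the 9 genes was not tested.

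The 10 genes most like the mean profile were Lrrc42 (r = 0.988), Prnp (0.982), Gm5454 (0.981), Lgals1 (0.976), Kcnv1 (0.974), Rps26 (0.973), Pip4k2c (0.972), Syt11 (0.966), Arl15 (0.965) and Car13 (0.963), each over 9 libraries. Kcnv1 encodes a potassium channel subunit, Prnp the prion protein and Syt11 a synaptotagmin. Gm5454 is a processed pseudogene, whose reads may come from its parent gene, and Rps26 encodes a ribosomal protein, of which related copies exist in the genome. None of the 10 is in the gene lists used here.

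Related genes were compared between the genotypes in the same fit. Of the 12 other telencephalic excitatory neuron genes, edgeR called 0 at an adjusted p under 0.05 in each comparison. For Dot1l(fl/fl) against Dot1l(+/+) 10 of 12 had a log2 fold change above 0, as did 8902 of all 17671 genes, with a median of 0.11, and 2, Camk2a and Hpca, had an unadjusted p under 0.05, beside 3.93% of all genes. Camk2a averaged 1178 CPM in Dot1l(+/+), 1190 CPM in Dot1l(fl/+) and 1429 CPM in Dot1l(fl/fl), with a log2 fold change of 0.28 ± 0.09 (SE) against the control and an edgeR adjusted p of 0.999. Hpca averaged 363 CPM, 387 CPM and 443 CPM in the same order, with a log2 fold change of 0.29 ± 0.10 (SE). For Dot1l(fl/+) against Dot1l(+/+) 5 of these 12 genes were higher and 7 lower, with a median of -0.04. Against Dot1l(fl/+), 11 of 12 had a log2 fold change above 0 in Dot1l(fl/fl), as did 8922 of all genes, with a median of 0.185, and 3 had an unadjusted p under 0.05, beside 6.48% of all genes. With no filter on low counts edgeR called 0, 2 and 2 of the 12 for Dot1l(fl/+) and Dot1l(fl/fl) against Dot1l(+/+) and for Dot1l(fl/fl) against Dot1l(fl/+), beside 0.886%, 0.417% and 0.579% of all genes. The cortical layer genes were 2 higher and 7 lower in Dot1l(fl/fl) against Dot1l(+/+), with a median of -0.09, and the hippocampal genes 9 higher and 1 lower, with a median of 0.07.

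Dopamine neuron genes are given beside these values because their levels differed in the same libraries. All 11 listed had a log2 fold change below 0 for Dot1l(fl/fl) against Dot1l(+/+), with a median of -0.56, and their sum was 630 to 694 CPM in Dot1l(+/+), 492 to 635 CPM in Dot1l(fl/+) and 475 to 506 CPM in Dot1l(fl/fl). None was called at an adjusted p under 0.05 by edgeR with the filter on low counts, all libraries and no replicate block (lowest adjusted p = 0.0906), and 9 of 11 had an unadjusted p under 0.05, beside 3.93% of all genes. This absence of calls depended on the fit. Slc6a3, Slc18a2 and Th, which encode the dopamine and vesicular monoamine transporters and tyrosine hydroxylase, were called lower by edgeR with the replicate block (lowest adjusted p = 0.0258), by edgeR on the 6 libraries of the 2 genotypes (0.000153) and by DESeq2 (3.42e-08). These fits called 3 of 17671, 4 of 17311 and 3 of 28310 genes in all. With no filter edgeR called 4 of the 11, the same 3 genes and Ddc (lowest adjusted p = 2.17e-23), beside 0.417% of all genes. Of the 10 compared with the profile of the 9 forebrain genes, 0 had an r above 0.5 and 1 an r under -0.5. Choroid plexus genes, from tissue in the ventricles nearby, were also lowest in Dot1l(fl/fl), with a sum of 31.5 to 38.9 CPM beside 58.7 to 146 CPM in Dot1l(+/+) and 106 to 577 CPM in Dot1l(fl/+). Their part in the values of the 9 genes was not tested.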

How the data were processed

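RNA of dissected adult midbrain was sequenced in 9 libraries from directional total RNA preparations. The authors deposited raw counts per Ensembl gene, and according to the submitters' processing notes reads were demultiplexed with bcl2fastq 2.17 and trimmed with Trimmomatic 0.30 for GRCm38.p4. The aligner and the counting tool are not given in the sources used here. The authors also deposited their own DESeq2 comparisons (means, log2 fold changes and p-values), which were not used.

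Groups were taken from the genotype labels. Counts of 47729 identifiers, 47310 of them in GENCODE M21, were filtered with filterByExpr, which left 17671 genes, and scaled by TMM. Tests used the quasi-likelihood test of edgeR 4.0.16 in R 4.3.3, with all 9 libraries in 1 fit, genotype as the only factor and Benjamini-Hochberg adjustment over all genes at 0.05. Fold changes are those of the fit, log2 CPM used a prior count of 2, and TPM used the summed length of all annotated exons. Correlations were tested by exact permutation of libraries within genotypes. Scripts were tested on simulated data. DESeq2 1.42.0, other size factors, other filters, an offset for length and GC content, a replicate block and leaving out each library were tried as alternatives, and the removal of length and GC trends before the correlations was chosen after seeing the data. Promoter windows came from RefSeq.

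The genes and lists were chosen with earlier results of these data known. Named were the 9 genes, Dot1l, from each list mainly those with the highest mean CPM, and the 10 genes with the highest r to the mean profile. Emx2, Cux1, Gabra6, Cbln3, Fat2, Tac1, Rgs9, Slc17a8, Pmch, Hcrt, Sim1, Avp, Slc18a2, Slc6a3, Th and Ddc were named after their values were seen. Library totals lay between 16422135 and 28403218. Libraries were pools of animals, and p-values measure the spread between pools.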

Additional observations from a re-analysis of the deposited data

How the results depend on the processing

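The 0 calls among the 9 genes held under DESeq2, 2-genotype fits, other size factors, a stricter filter, the replicate block, the length and GC offset and leaving out each library. With no filter on low counts edgeR called 1 gene for Dot1l(fl/+) against Dot1l(+/+), 2 for Dot1l(fl/fl) against Dot1l(+/+) and 1 for Dot1l(fl/fl) against Dot1l(fl/+), beside 251, 118 and 164 of all 28316 genes, and the cause was not tested. The median log2 fold change of the 9 genes for Dot1l(fl/fl) against Dot1l(fl/+) ranged from -0.0382 to 0.165 when each library was left out, the highest without Dot1l(fl/+) replicate 2. The median r of all pairs was 0.234 with genotype means kept and 0.289 to 0.557 when each library was left out, lowest without Dot1l(fl/+) replicate 1.

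Small fold changes turned direction under some settings. With the length and GC offset, alone and with the replicate block, the log2 fold change of Rasgrf2 for Dot1l(fl/+) against Dot1l(+/+) was 0.0293 and 0.0284, and for Dot1l(fl/fl) against Dot1l(+/+) that of Lamp5 was -0.0056 and -0.003 and that of Cux2 0.00541 and 0.00494. Leaving out each library gave these ranges. For Dot1l(fl/+) against Dot1l(+/+) they were -0.102 to 0.0377 for Rasgrf2, -0.031 to 0.243 for Lamp5, -0.285 to 0.297 for Tbr1, -0.103 to 0.237 for Neurod6, -0.205 to 0.112 for Neurod2 and -0.139 to 0.0706 for Cux2. For Dot1l(fl/fl) against Dot1l(+/+) they were -0.0446 to 0.036 for Lamp5, -0.0152 to 0.255 for Tbr1 and -0.0887 to 0.0184 for Cux2. For Dot1l(fl/fl) against Dot1l(fl/+) they were -0.108 to 0.0322 for Rasgrf2, -0.238 to 0.036 for Lamp5, -0.178 to 0.404 for Tbr1, -0.0981 to 0.111 for Cux2 and -0.065 to 0.165 for Nrgn. Neurod6, Nrgn, Slc17a7 and Neurod2 stayed above 0 for Dot1l(fl/fl) against Dot1l(+/+) under every alternative run, and Emx1 and Rasgrf2 stayed below 0.

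The methods mention paired litter sets, but no label says that replicate numbers mark them. Deviations of same-numbered libraries correlated at 0.0935 to 0.463, above 0.1 in 8 of 9 pairs, and 15 of 18 matches were best with the own number. That the numbers mark the sets is thus a hint from the data, whereas the paired sets themselves are part of the stated design. The permutation of libraries within genotypes took no account of such sets. The replicate block called 0 of the 9 genes in each comparison, and removing replicate number means raised the median r of all pairs to 0.63. With 31 to 99 counts a library, Emx1 is the gene for which depth limits precision most.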

Other observations

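Some values outside the comparisons describe the ratios between the 9 genes. The ratio of Slc17a7 to Nrgn was the steadiest of those that involve Slc17a7, with a coefficient of variation of 9.95% over the 9 libraries, and that of Slc17a7 to Neurod6 had 10.3%. The ratio of Tbr1 to Cux2 was the least steady of the pairs named in the report, with 35.4% and a 2.8-fold span, and both its lowest and its highest library belonged to Dot1l(fl/+), replicate 1 and replicate 2.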
